A study of Mus musculus with 7 samples.

Results

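Zp1, Zp2, Zp3, Astl, Cd9, Cd81 and Izumo1r encode egg proteins that meet the sperm, from the zona pellucida to the membrane at which the gametes fuse. These 7 genes were chosen by their symbols, and each symbol had 1 entry among the 25908 entries used, of 25912 listed for every library. Transcript levels were measured by Smart-seq2, a cDNA method for small numbers of cells, in 7 libraries of 10 mouse oocytes each. The GV group had 2 libraries of oocytes at the germinal vesicle stage, arrested before meiotic resumption, with the labels genotype Control and treatment NO. Metaphase II (MII) oocytes, the stage at which the egg waits for the sperm, were collected after maturation with the solvent DMSO in 3 libraries (genotype Control) and with BYBX in 2 libraries (genotype field Treat). BYBX is a fluorescent ligand that stabilizes RNA G-quadruplexes (rG4s), structures folded by guanine-rich RNA. The study reports that BYBX lowered the rate of polar body emission, and that treated oocytes reaching MII had abnormal spindles. The BYBX libraries are titled MII, but whether their oocytes matched those with DMSO in maturity was not tested. All oocytes came from juvenile, gonadotropin-primed (PMSG) females of C57BL/6 background and were collected at the GV stage, those of the MII groups being matured in M16 medium, and no altered gene is described for any group. The methods describe DMSO as the control for GV oocytes too, whereas the labels of the GV libraries name no solvent, so a difference in solvent between GV and MII is unknown. The labels give no dose of BYBX, and nothing says that replicate libraries came from separate females, so the p-values measure the spread between these libraries, which may be technical.

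The zona pellucida is a glycoprotein coat that the growing oocyte secretes around itself. In the mouse it is built from ZP1, ZP2 and ZP3, where ZP2 and ZP3 alternate along the filaments and ZP1 links filaments to each other. At fertilization the egg releases ovastacin, the metalloprotease encoded by Astl, from cortical granules, and cleavage of ZP2 then prevents further sperm from binding. On the egg membrane JUNO, encoded by Izumo1r, is the receptor of the sperm protein IZUMO1, and the tetraspanin CD9 is needed for fusion, while the related tetraspanin CD81 has been described on the oocyte and on the cumulus cells around it. These proteins are largely made during growth, and maternal mRNAs are degraded or lose their poly(A) tails as the oocyte matures.

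Values were FPKM, which correct for gene length and were scaled by the study to an RNA spike-in added in equal amount to every lysate. Summed FPKM accordingly differed between groups, from 402113 to 489569 in GV, 109732 to 127254 in MII with DMSO and 201482 to 246710 in MII with BYBX. Over the 9202 entries tested, the median difference in log2(FPKM + 1) was -1.83 from GV to MII with DMSO, and 0.84 from DMSO to BYBX at MII. After rescaling every library to the same total these medians were -0.56 and 0.34, and each change of the 7 genes is therefore read against the background. Oocyte markers such as Gdf9 and H1f8 were abundant in each library, the sum of the 10 markers being 4294 to 13148 FPKM. The sum of 15 granulosa and cumulus markers was 16.9 and 8.43 FPKM in GV, 2.19 to 3.03 in MII with DMSO, and 3.85 and 3.43 in MII with BYBX. Within pooled oocytes, fewer oocytes with a transcript and less of it per oocyte cannot be told apart.

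The transcripts of the 3 zona genes are compact. On GRCm38, the assembly also called mm10, Zp1 lies on the minus strand at chr19:10914287-10920632, Zp2 on the minus strand at chr7:120126772-120145291, and Zp3 on the plus strand at chr5:135980099-135988624. Their coding sequences span 623, 713 and 424 codons, in 12, 18 and 8 exons. The annotated 3′-UTRs measured only 34 bases in Zp1, 49 in Zp2 and 13 in Zp3, where the median of 8738 tested genes with a complete coding transcript was 867. Of those genes, 2.19%, 3.0% and 1.35% had a 3′-UTR no longer than that of Zp1, Zp2 and Zp3. Windows around the poly(A) signal are shown because they place the end of the message against the stop codon, with the hexamer AATAAA in capitals.
Zp1: ttaaatggactcAATAAAccattgtttgaa
Zp2: attggacttgcaAATAAAgagactgcagtt
Zp3: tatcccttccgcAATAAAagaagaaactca
In Zp3 the hexamer spans the stop codon TAA itself, with 2 of its bases before the stop codon and 1 in the 3′-UTR, and the window runs to the last base of the transcript. Zp1 also has the variant hexamer ATTAAA, which spans its stop codon TAA in the same way, upstream of the AATAAA shown. A poly(A) signal (AATAAA or ATTAAA, transcript strand) in the last 40 bases was present in all 7 genes and in 75.1% of the 8738 genes.

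The remaining 4 genes have longer 3′-UTRs, 876 bases in Astl (chr2:127338639-127357651, plus strand), 333 in Izumo1r (chr9:14885814-14903949, minus strand), 395 in Cd9 (chr6:125460266-125494791, minus strand) and 560 in Cd81 (chr7:143052739-143067934, plus strand). Poly(A) signals of these genes are printed likewise, followed by the cytoplasmic polyadenylation element (CPE), the motif through which maternal mRNAs gain a longer tail during maturation.
Astl: ggaaaaggtagaAATAAAgttgggtgtttg
Izumo1r: catggtaccttcAATAAAaggctaggaaac
Cd9: aatttgatacatAATAAAagattataacag
Cd81: aaacagtcatttAATAAAggaggaaaaaaa
Cd9, CPE: ttctgtttgtctTTTTAATgctttattcat
Cd81, CPE: ttgctcacatctTTTTAATctttgttcctt
A CPE was searched as TTTTAT or TTTTAAT on the transcript strand and was found in both tetraspanin genes, 267 bases from the transcript end in Cd9 and 156 in Cd81. The zona genes, Astl and Izumo1r held none, while 58.6% of the 8738 genes held at least 1 in the 3′-UTR. Within the last 100 bases of the 3′-UTR none of the 7 genes had a CPE, compared with 19.6% of the 8738 genes. Only the 3′-UTR was searched, and those of Zp1, Zp2 and Zp3 have 34, 49 and 13 bases, against a median of 867. So short a stretch leaves little room for the motif, and for these 3 genes the shares are not a like comparison. A G-quadruplex motif, in which 4 runs of 3 or more G follow each other at distances of 1 to 7 bases, was absent from the 7 transcripts and present in 17.5% of the genes. These matches describe the letters of the annotated transcripts and are not measured sites.

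Zp3, the protein partner of ZP2 in the zona filament, was the most abundant of the 7 transcripts in GV oocytes. Its level was 3124 and 2773 FPKM in the GV libraries, 73.4, 59.3 and 106 FPKM in MII with DMSO, and 1144 and 942 FPKM in MII with BYBX. No library of any group reached the range of another group. From GV to MII with DMSO, Zp3 fell by 5.23 on the log2(FPKM + 1) scale (SE 0.27, limma adjusted p = 8.14e-10), to 2.70% of its mean GV level. With BYBX it was 3.73 higher than with DMSO (SE 0.27, limma adjusted p = 1.18e-07) and stood at 35.4% of GV. Zp3 ranked 4 in both GV libraries among all entries, between 174 and 320 with DMSO, and 23 and 20 with BYBX, and these ranks do not depend on the scale of the library.

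Zp2, whose protein binds sperm and is cut by ovastacin, gave 1857 and 1332 FPKM in GV, 47.0, 35.9 and 87.4 FPKM in MII with DMSO, and 580 and 724 FPKM in MII with BYBX. The 3 groups again did not overlap. Zp2 fell by 4.87 from GV to MII with DMSO (SE 0.34, limma adjusted p = 9.53e-09) and was 3.59 higher with BYBX than with DMSO (SE 0.34, limma adjusted p = 9.07e-07). Against GV, the BYBX libraries were lower by a log2 difference of -1.28 (SE 0.37, limma adjusted p = 0.00735). That last call rested on GV replicate 1, since without it the difference was -1.04 with an adjusted p of 0.119 in limma.

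Zp1, the cross-linking component, changed least of the 3. The GV libraries held 1218 and 859 FPKM, those of MII with DMSO 127, 87.9 and 131 FPKM, and those of MII with BYBX 410 and 458 FPKM. All GV libraries lay above all BYBX libraries, and these above all DMSO libraries. The fall to MII with DMSO was -3.16 (SE 0.27, limma adjusted p = 6.79e-08), which left 11.1% of the GV mean, and 21.2% of the 9202 tested entries fell further. For Zp2 and Zp3 this share was 4.39% and 2.91%. These positions depend on the pseudocount, and with 0.1 FPKM in place of 1 the shares were 39.3% for Zp1, 15.6% for Zp2 and 12.1% for Zp3. They depend on the level too. At a pseudocount of 1, the 870 tested entries with a GV mean of 100 FPKM or more had a median log2 difference of -3.04. Of these, 48.2% fell further than Zp1, 24.1% than Zp2 and 19.9% than Zp3. With BYBX Zp1 was 1.92 higher than with DMSO (SE 0.27, limma adjusted p = 2.98e-05), at 41.8% of GV.

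**Figure D1:**
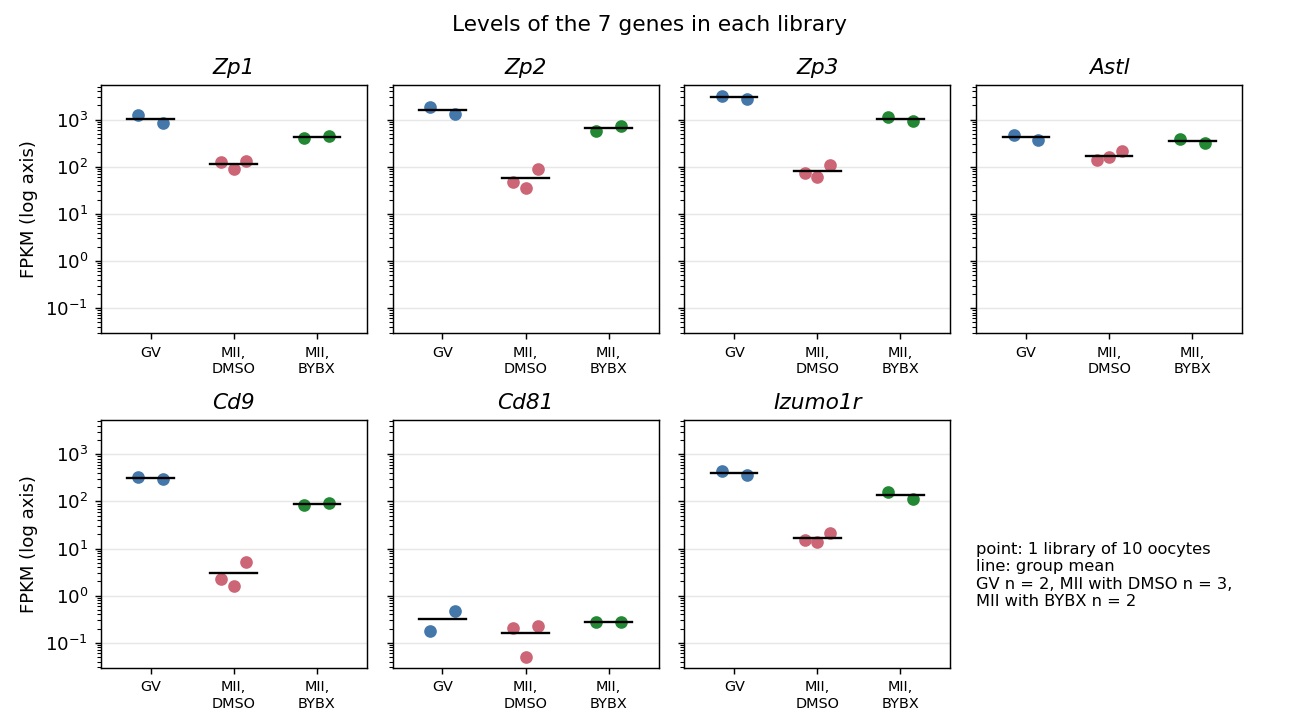
FPKM of each gene (log axis) in the libraries of GV oocytes, MII oocytes with DMSO and MII oocytes with BYBX; points are libraries of 10 oocytes and lines are group means. The zona genes, Cd9 and Izumo1r were lowest in all 3 DMSO libraries and between GV and DMSO with BYBX, Astl changed less, and Cd81 stayed under 0.5 FPKM.

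The zona messages also changed their proportions within a library, a comparison that no scaling of the library can alter. In GV oocytes Zp3 exceeded Zp1 by 2.56 and 3.23 times. In MII with DMSO the order was turned, Zp1 exceeding Zp3 by 1.73, 1.48 and 1.24 times in the 3 libraries. In MII with BYBX Zp3 again exceeded Zp1, by 2.79 and 2.06 times, the first within the GV range. The log2 ratio of Zp1 to Zp2 followed the same course, at -0.61 and -0.63 in GV, 1.43, 1.29 and 0.59 with DMSO, and -0.50 and -0.66 with BYBX. For both ratios the DMSO libraries overlapped neither other group, while GV and BYBX overlapped each other. Zp2 and Zp3, which build the filament together, differed less in their ratio. The log2 ratio was -0.75 and -1.06 in GV, -0.64, -0.73 and -0.28 with DMSO, and -0.98 and -0.38 with BYBX, so that the DMSO libraries lay just above the GV libraries, and the range with BYBX took in 3 of the 5 libraries of both. These ratios were described and not tested.

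**Figure D2:**
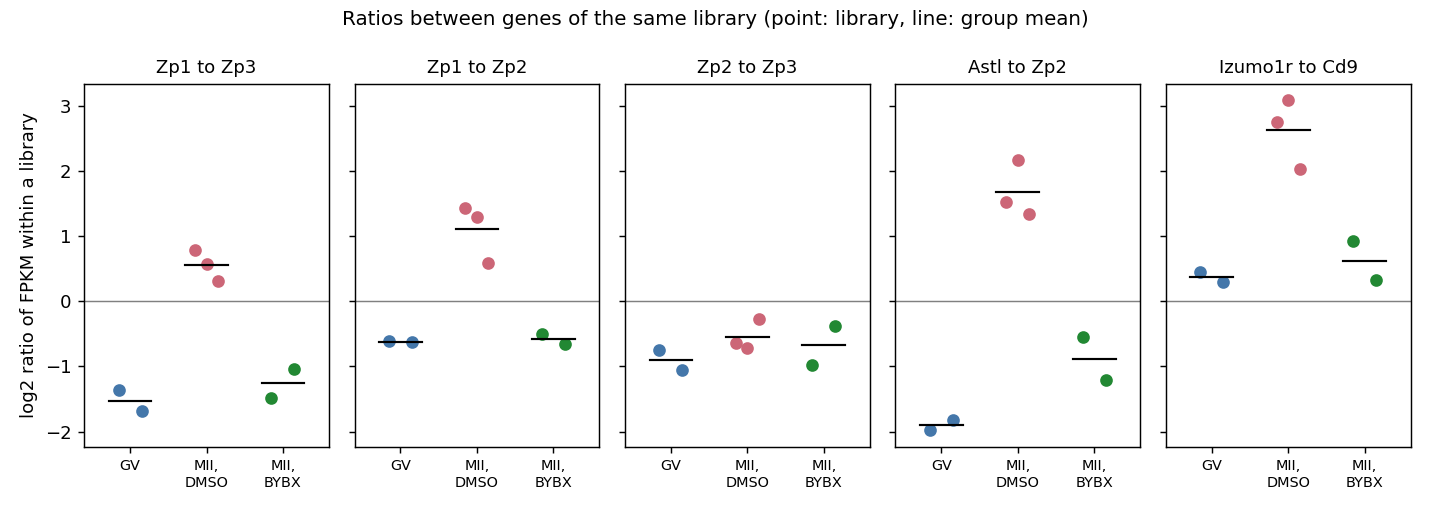
Log2 ratio of the FPKM of 2 genes of the same library; points are libraries, black lines are group means, and the grey line marks equal levels. Zp1 lay above Zp2 and Zp3 only in the 3 DMSO libraries, and Izumo1r exceeded Cd9 most in those libraries.

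Astl behaved differently from the zona genes on the spike-in scale and changed direction with the scale. The GV libraries held 471 and 376 FPKM, MII with DMSO 135, 160 and 220 FPKM, and MII with BYBX 396 and 313 FPKM. The DMSO libraries were below both other groups, and the GV and BYBX libraries overlapped. As deposited, Astl fell by 1.32 from GV to MII with DMSO (SE 0.27, limma adjusted p = 4e-04), less than the median fall of all tested entries, and 65.7% of the entries fell further (73.0% with a pseudocount of 0.1). At the same total FPKM the difference was 0.56 (limma adjusted p = 0.021), and with median centring 0.99 (limma adjusted p = 0.00155), both higher in MII. Of all tested entries, 23.3% were called higher at the same total and 48.8% with median centring. The median difference of all entries was -0.56 at the same total and 0.47 with median centring, so the second call was a common one. Within the libraries Astl took 0.0961% and 0.0936% of the summed FPKM in GV, 0.123%, 0.130% and 0.173% with DMSO, and 0.160% and 0.155% with BYBX. It was thereby the most abundant of the 7 messages in every DMSO library, with ranks of 99, 98 and 68, after ranks of 134 and 145 in GV. Against Zp2, the message of its substrate, the log2 ratio was -1.98 and -1.82 in GV, 1.53, 2.16 and 1.33 with DMSO, and -0.55 and -1.21 with BYBX, with no overlap between the 3 groups.

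The difference of Astl between BYBX and DMSO at MII was 1.06 as deposited (SE 0.27, limma adjusted p = 0.00362). It was 0.17 (limma adjusted p = 0.48) at the same total and -0.22 (limma adjusted p = 0.363) with median centring, so that neither size nor direction was independent of the scale. Against GV, Astl with BYBX differed by -0.26 as deposited (95% interval -0.89 to 0.38, limma adjusted p = 0.446).

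Izumo1r, the gene of the egg receptor for IZUMO1, gave 450 and 366 FPKM in GV, 14.9, 13.8 and 21.5 FPKM in MII with DMSO, and 156 and 115 FPKM in MII with BYBX. Each group was separate from the other two. Izumo1r fell by 4.55 from GV to MII with DMSO (SE 0.28, limma adjusted p = 2.89e-09), to 4.10% of GV, and was 2.95 higher with BYBX than with DMSO (SE 0.28, limma adjusted p = 9.08e-07), at 33.1% of GV. The folate receptor genes Folr1 and Folr2, from whose family JUNO comes, did not exceed 0.254 FPKM in any library.

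Cd9 changed most. Its level was 329 and 298 FPKM in GV, 2.2, 1.63 and 5.29 FPKM in MII with DMSO, and 82.4 and 92.0 FPKM in MII with BYBX. The highest DMSO library remained far below the lowest BYBX library, which in turn lay below both GV libraries. The fall from GV to MII with DMSO was -6.39 (SE 0.33, limma adjusted p = 8.6e-10), leaving 0.970% of the GV mean, and 51 of the 9202 tested entries fell further (214 with a pseudocount of 0.1). With BYBX Cd9 was 4.55 higher than with DMSO (SE 0.33, limma adjusted p = 1.25e-07), and 44 of the 9202 entries had a larger difference (179 with a pseudocount of 0.1). In ranks, Cd9 passed from 212 and 194 in GV to between 2686 and 4731 with DMSO, and stood at 490 and 331 with BYBX. Izumo1r and Cd9 were close in GV, with log2 ratios of 0.45 and 0.29, and drew apart in MII with DMSO, at 2.75, 3.08 and 2.02. With BYBX the log2 ratios were 0.92 and 0.32, the second within the GV range.

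Cd9 is also made by somatic cells of the follicle, and the granulosa and cumulus markers, like Cd9, were highest in GV. Their summed level of at most 16.9 FPKM compares with 298 FPKM or more of Cd9 in the same group. Of the 15 markers, 10 stayed under 1 FPKM in every library. The 2 that passed the filter, Cyp19a1 and Inha, fell from GV to MII with DMSO as deposited, as did 88.3% of all tested entries. At the same total Inha was lower in MII with DMSO and Cyp19a1 higher, against 49.5% and 23.3%. Inha was at 5.48 and 1.94 FPKM in GV, and at 0.221, 0.0927 and 0.189 FPKM with DMSO. Its mean was 3.71 FPKM at the GV stage, while the MII means were 0.167 (DMSO) and 0.169 (BYBX). Only its GV level carried Inha past the filter, so the filter itself favoured a fall from GV. The part of somatic cells in the change of Cd9 was not tested. The noncoding gene Gm26728 overlaps exons of Cd9 on the opposite strand, and R74862 those of Cd81. Reads of such partners cannot be told apart by a protocol that does not mark the strand. R74862 was listed at 0 FPKM in every library, and Gm26728 had no entry among those used.

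Cd81 was barely detected in any group, with 0.178 and 0.475 FPKM in GV, 0.208, 0.0511 and 0.231 FPKM in MII with DMSO, and 0.278 and 0.282 FPKM in MII with BYBX. Its values in GV and DMSO overlapped, and every one was under 0.5 FPKM. Cd81 was the only gene of the 7 that did not pass the filter of 1 FPKM, and it was not tested. Cd9 exceeded it by 628 to 1853 times in GV, 10.6 to 31.9 times with DMSO and 296 to 326 times with BYBX. A level as low as that of Cd81 is imprecise, and so are these ratios.

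**Figure D3:**
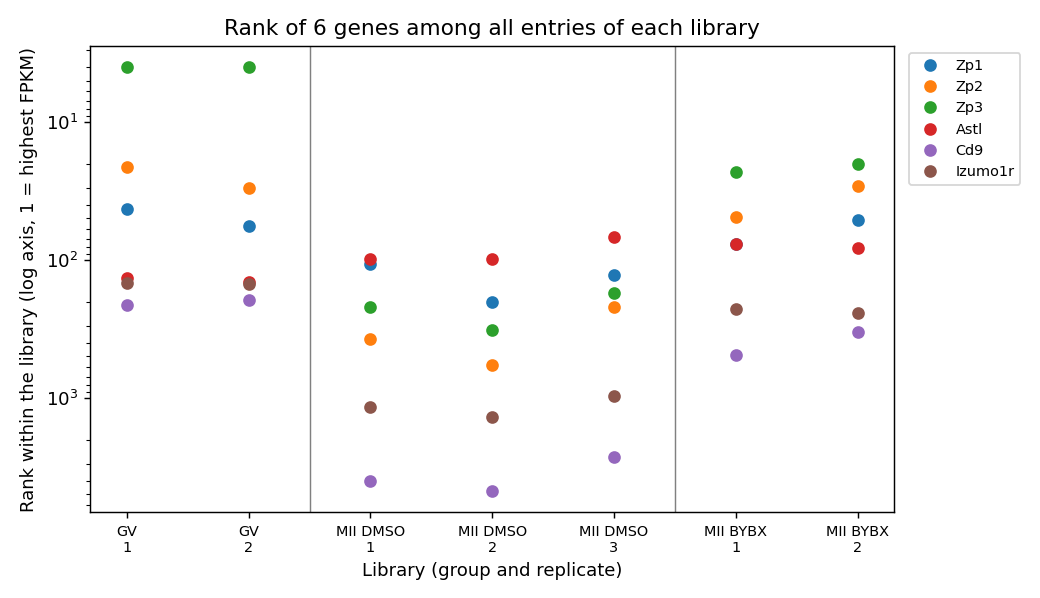
Rank of 6 genes by FPKM among the entries of each library (inverted log axis, 1 at the top), by group and replicate. Zp3 stood at 4 in GV, at 174 to 320 with DMSO and at 23 and 20 with BYBX, Cd9 at 2686 to 4731 with DMSO, and Astl stayed between 68 and 145.

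Of the 7 genes, 6 passed the filter. From GV to MII with DMSO 6 of these 6 fell, as did 88.3% of all tested entries, so the count alone does not set them apart. Scaled to equal totals, Zp1, Zp2, Zp3, Cd9 and Izumo1r were lower, against 49.5% of all entries, and Astl was higher, as were 23.3%. Every GV library lay above every DMSO library for each of the 6 genes, and for 92.5% of all tested entries. The sizes differed more than the counts. Relative to the median of all entries, the log2 difference was -1.33 for Zp1, -2.71 for Izumo1r, -3.03 for Zp2, -3.40 for Zp3 and -4.55 for Cd9, while Astl stood 0.52 above it. With a pseudocount of 0.1 these values were -0.64, -2.09, -2.36, -2.72 and -4.28, and 1.21 for Astl, because the falls of low entries are then less compressed. At a pseudocount of 1, the 870 tested entries with a GV mean of 100 FPKM or more had a median of -3.04. Of these, 74.6% fell further than Astl, 48.2% than Zp1, 27.6% than Izumo1r, 24.1% than Zp2, 19.9% than Zp3 and 5.86% than Cd9.

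Between BYBX and DMSO at MII, 6 of the 6 tested genes were higher with BYBX, compared with 65.2% of all tested entries. On equal totals 5 of them were higher, all but Astl, compared with 39.9% of the entries. All BYBX libraries lay above all DMSO libraries for each of the 6 genes, and for 79.0% of the entries. Differences above the median of all entries were 3.71 for Cd9, 2.89 for Zp3, 2.75 for Zp2, 2.11 for Izumo1r, 1.09 for Zp1 and 0.22 for Astl on the log2 scale. With a pseudocount of 0.1 they were 3.68, 2.45, 2.32, 1.72, 0.64 and -0.23, in the same order of genes. At a pseudocount of 1, the 870 tested entries with a GV mean of 100 FPKM or more had a median difference of 1.66. The difference was larger than that of Astl in 62.2% of these, of Zp1 in 42.8% and of Izumo1r in 25.9%. It was larger than that of Zp2 in 16.9%, of Zp3 in 15.6% and of Cd9 in 4.71%. The DMSO libraries enter this comparison and that with GV, so the 2 are not independent.

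**Figure D4:**
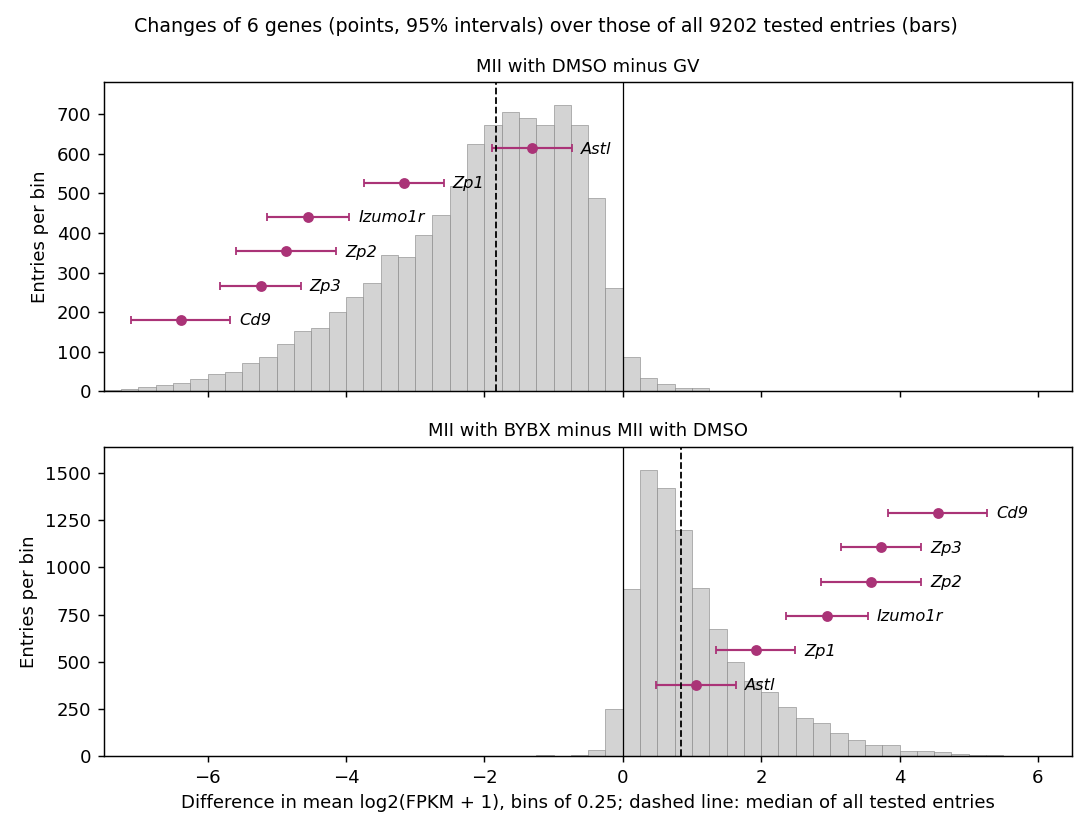
Differences in mean log2(FPKM + 1) of 6 genes (points with 95% intervals, placed at arbitrary heights) over the histogram of all 9202 tested entries (bars, bins of 0.25), for MII with DMSO minus GV and for MII with BYBX minus MII with DMSO. Cd9 lay furthest out of the 6 in both, at -6.39 and 4.55, and the interval of Astl took in the median of all entries, drawn as a dashed line.

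Between BYBX-treated MII and GV, 5 of the 6 tested genes were lower as deposited, compared with 69.2% of all entries. The log2 differences were -1.24 for Zp1, -1.28 for Zp2, -1.50 for Zp3, -1.60 for Izumo1r and -1.84 for Cd9, and the median of all entries was -0.99. Among the 870 tested entries with a GV mean of 100 FPKM or more, the median was -1.36. For these 5 genes every GV library lay above every BYBX library, as for 82.3% of all tested entries. None of the 5 was called lower on equal totals, against 13.3% of the entries, and Astl was called higher by 0.73 (limma adjusted p = 0.0398), as were 5.30%. The 7 genes together took 1.52% and 1.49% of the summed FPKM in GV, 0.364%, 0.290% and 0.449% in MII with DMSO, and 1.12% and 1.31% in MII with BYBX. In this share both BYBX libraries lay between the 2 other groups and nearer to GV.

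**Figure D5:**
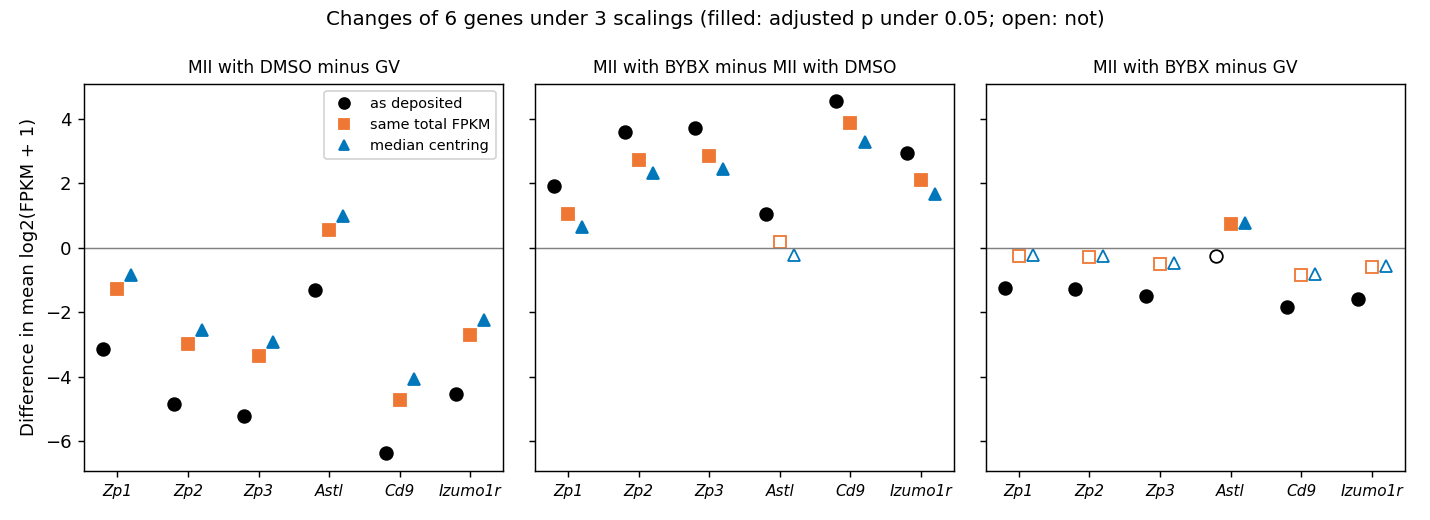
Differences in mean log2(FPKM + 1) of 6 genes in 3 comparisons, as deposited, with all libraries scaled to 1 total, and with medians centred; filled symbols had a limma adjusted p under 0.05. Astl changed sign with the scale in all 3 comparisons, whereas the other 5 genes stayed below 0 in the first and above 0 in the second.

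The order of the levels, comparable between genes because FPKM are per length, was Zp3, Zp2, Zp1, Astl, Izumo1r and Cd9 in GV. Of these neighbours only Astl and Izumo1r overlapped. In MII with BYBX the same order held and no neighbours overlapped. In MII with DMSO Astl came first, and Zp1, Zp3 and Zp2 followed with overlapping ranges, of 87.9 to 131, 59.3 to 106 and 35.9 to 87.4 FPKM, before Izumo1r and Cd9.

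Profiles over the 7 libraries were compared with those of 3762 other entries of at least 10 FPKM, by the root mean square (RMS) difference of log2(FPKM + 1) after centring. Nearest to Zp1 were Nudcd3 (RMS difference 0.07) and Nudt5 (0.09), and nearest to Zp2 were Tsnax (0.25) and Svbp (0.27). Zp3 was nearest to Ptpn18 (0.14) and Rpl18 (0.14), Astl to Dda1 (0.11) and Ccnb2 (0.12), Izumo1r to Capzb (0.09) and Zbed5 (0.09), and Cd9 to Zfand2b (0.16) and Atp5o (0.21). The 7 genes themselves were not candidates.

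Genes that act on the zona genes, or beside the egg receptors, were followed in fixed lists, whose counts stand against the 88.3% of all tested entries that fell from GV to MII with DMSO and the 65.2% that were higher with BYBX than with DMSO. All 5 tested transcription factors linked to zona gene expression fell from GV to MII with DMSO, by a median log2 difference of -4.92, and all 5 were higher with BYBX than with DMSO, by a median of 2.80. Nobox, a homeobox factor of the oocyte, went from 435 and 289 FPKM in GV to 6.61, 6.05 and 7.27 FPKM with DMSO, and stood at 92.2 and 110 FPKM with BYBX. Figla, the E-box factor that switches on the 3 zona genes, went from 32.1 and 38.8 FPKM to 0.114, 0.0324 and 0.0929 FPKM, and stood at 11.4 and 9.03 FPKM with BYBX. Nobox, Figla and Lhx8 kept both calls at the same total and with median centring. Of all tested entries, 49.5% and 26.7% were lower in MII with DMSO under these scalings, and 39.9% and 18.4% were higher with BYBX. Tcf12 was lower in MII with DMSO at the same total, whereas with median centring it was higher there and its BYBX level was called below that with DMSO, and Tcf3 was called under neither.

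For surface partners of CD9 and the egg integrins, 5 of the 6 tested genes were lower in MII with DMSO and 3 of the 6 were higher with BYBX, with medians of -1.43 and 0.62, counts near or below the shares of all entries. Itga6, the α6 integrin long considered as a sperm receptor, was at 32.7 and 32.7 FPKM in GV, 9.33, 14.7 and 16.2 FPKM with DMSO, and 20.3 and 14.1 FPKM with BYBX. These directions hung on the scale. At the same total 1 of the 6 was lower in MII with DMSO (Cd151), against 49.5% of all tested entries, and 1 was higher (Itga9), against 23.3%. None was higher with BYBX, against 39.9%. With median centring 5 of the 6 were higher in MII with DMSO, against 48.8%. Under that scaling 2 (Itga6 and Itga9) were lower with BYBX than with DMSO, against 43.9%. JUNO is held in the membrane by a glycosylphosphatidylinositol (GPI) anchor. Of the 8 tested genes for making and attaching that anchor, 8 were lower in MII with DMSO and 6 higher with BYBX, near the shares of all entries, with medians of -2.57 and 1.19. Of the 8, the same total left 5 lower in MII with DMSO and 4 higher with BYBX, against 49.5% and 39.9% of all tested entries. Median centring left 1 and 1 (Pigs in both), against 26.7% and 18.4%. It called 2 the other way in each comparison (Piga and Pigm), against 48.8% and 43.9%.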

How the data were processed

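Each library held 10 oocytes and 100 pg of ERCC spike-in RNA, and reverse transcription started from oligo-dT, so values follow polyadenylated RNA. Per the submitters' processing notes and the study's methods, the authors trimmed reads with Trim Galore 0.6.7, aligned them to mm10 with HISAT2 2.2.1 and quantified them with Cufflinks 2.2.1. The deposited FPKM values had been normalized by the authors to the spike-in, and batches had been brought together through their GV libraries. Which library belonged to which batch, and the factors, are not given in the sources used here. The files hold no read counts, so depth per library is unknown and precision is that of 2 or 3 libraries per group. Groups came from the sample titles and, for MII with DMSO, from the treatment label.

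Of 25912 entries, 4 with a missing value were left out. Entries with an average of 1 FPKM or more over the 3 group means (9202) were fitted as log2(FPKM + 1) with limma 3.58.1 in R 4.3.3 (7 libraries, 3 group means, intensity trend, 4 residual degrees of freedom), and an entry was called at a Benjamini-Hochberg adjusted p under 0.05 over all of them. A fold change on this scale understates that of low genes. The fit was tested on simulated data, in which far fewer entries changed than in these libraries. The alternatives were a pseudocount of 0.1, a filter at 5 FPKM or none, the same total FPKM per library, median centring, models of the 2 compared groups alone, no intensity trend, a minimum of 2-fold, the replicate number as a block, each library left out, and shares without the 10 most abundant entries.

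The 7 genes and the gene lists (zona gene transcription, zona glycosylation and cleavage, egg surface partners, folate receptor paralogs, GPI anchor, cortical granule exocytosis, sperm side, and markers of oocytes, granulosa and cumulus, theca and stroma, and blood cells) were chosen with earlier results of these data known. Besides the 7 genes, those named are up to 4 of a list by mean level and the 2 entries of unique name, at 10 FPKM or more, nearest in profile to each gene. Cd151, Tcf12, Syt1, Pigm, Izumo1, Zp4-ps and R74862 were chosen after their values were seen, and Gm26728 had no values among the entries used. Positions, exons and motifs are those of the GENCODE vM21 transcript with the longest coding sequence. Of 9154 tested names, 8738 (95.5%) matched one. The poly(A) window was set to the last 40 bases of the transcript after the 13-base 3′-UTR of Zp3 was seen. No protein sequences and no promoters were used here. Tables and plots were made in Python 3.11.15 (pandas 2.3.3, numpy 2.4.6, matplotlib 3.10.9).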

Additional observations from a re-analysis of the deposited data

How the results depend on the processing

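Of 294 values of single genes under the alternatives, 276 kept the direction and the side of the threshold, 13 kept the direction but were no longer called, and 5 changed sign, all of Astl. The filters, the models of 2 groups, the fit without a trend and the 2-fold minimum could not change a log2 difference. Nor could the replicate blocks between BYBX and GV, or leaving out a library of the group not compared. The count of 276 therefore includes many values whose direction was fixed. The scale of the libraries mattered most. From GV to MII with DMSO, Astl was 0.56 at the same total and 0.99 with median centring, which made 1 gene called higher under each where none was as deposited. Of all tested entries, 23.3% and 48.8% were called higher there. Between BYBX and DMSO, Astl was 0.17 and not called at the same total, and -0.22 with median centring. Against GV, Astl with BYBX was 0.73 and 0.77 under these scalings, 1 gene was called in all, 1 was higher and 0 were lower, in place of 5. Of all tested entries, 5.30% and 15.2% were higher in this comparison, and 13.3% and 13.6% were lower. Here the other 5 genes kept their direction but were not called. Zp2 against GV was -1.28 without a filter, with a limma adjusted p of 0.0609. The share of summed FPKM taken by the 7 genes became 1.62% in GV and 1.35% with BYBX, on average, without the 10 most abundant entries.

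Leaving out each library in turn left 6 genes lower and 0 higher from GV to DMSO, 6 higher and 0 lower from DMSO to BYBX, and 4 to 5 lower and 0 higher from GV to BYBX, with 4 to 5 called in all. With the replicate number as a replicate block the calls of the 6 genes were unchanged, at 6, 6 and 5. Only the DMSO group has a replicate 3, so the block takes up that library. Its log2 differences against DMSO therefore equalled those with DMSO replicate 3 left out, as at -6.76 for Cd9 from GV to DMSO. Between BYBX and GV they equalled those of the main fit, so the block is not a separate check of the sizes. Deviations of same-numbered libraries correlated at 0.49 and 0.28 for GV and DMSO, -0.60 and -0.35 for DMSO and BYBX, and -0.33 for GV and BYBX, and no source ties a number to an animal or batch, so the libraries share only a number. A crossed replicate block for GV and BYBX, chosen after seeing the data, left 5 genes called. Levels under 1 FPKM, as of Cd81, cannot be given a precision from these files.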

Other observations

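Ovastacin is released when cortical granules fuse with the egg membrane. Of 9 tested genes of this exocytosis, 9 fell from GV to MII with DMSO (median log2 difference -2.70), as did 88.3% of all tested entries, and 5 were higher with BYBX than with DMSO (median 1.47), as were 65.2%. Nsf, the ATPase that takes SNARE complexes apart, was at 78.5 and 54.5 FPKM in GV, 8.70, 9.39 and 9.70 FPKM with DMSO, and 36.7 and 23.5 FPKM with BYBX. Vamp3, a vesicle SNARE, was at 27.5 and 20.8 FPKM in GV and 10.8, 9.96 and 14.6 FPKM with DMSO. On equal totals 5 of the 9 were lower and Vamp3 was higher in MII with DMSO, against 49.5% and 23.3% of all tested entries. With median centring 4 were lower and 4 higher, against 26.7% and 48.8%. Between BYBX and DMSO, 5 were higher and Vamp3 was lower on equal totals, against 39.9% and 8.22%. With median centring 1 was higher and 3 were lower (Snap23, Syt1 and Vamp3), against 18.4% and 43.9%. Of 3 tested genes for zona glycosylation and cleavage, C1galt1c1 and Mgat1 were lower in MII with DMSO and higher with BYBX as deposited, whereas with median centring neither was called in either comparison. Furin, a proprotein convertase that trims zona proteins, was at 14.0 and 10.4 FPKM in GV, 9.16, 14.4 and 16.8 FPKM with DMSO, and 30.6 and 10.6 FPKM with BYBX, with no call as deposited and a higher call in MII with DMSO at the same total.

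Transcripts of the sperm partners were looked for as well. Of 14 such genes, 7 were listed at 0 in every library, Izumo1 among them. Spam1 and Tmem81 passed the filter and fell from GV to MII with DMSO as deposited, with log2 differences of -1.54 and -0.70 (limma adjusted p = 0.000422 and 0.0488), neither was called at the same total, and Tmem81 was higher in MII with DMSO with median centring. The pseudogene Zp4-ps did not exceed 0.0372 FPKM. Of the 10 oocyte markers, 8 were lower in MII with DMSO, 7 higher with BYBX and 5 lower with BYBX than in GV as deposited, compared with 88.3%, 65.2% and 69.2% of all tested entries. At the same total 3 were lower and 5 higher in MII with DMSO (49.5% and 23.3% of all tested entries). With median centring 2 were lower and 6 higher (26.7% and 48.8%). With BYBX against DMSO, equal totals left 3 markers higher and 2 lower (39.9% and 8.22%), and median centring 2 higher and 5 lower (18.4% and 43.9%). Between BYBX and GV none was lower under these scalings (13.3% and 13.6% of all tested entries), and 3 and 4 were higher (5.30% and 15.2%). Theca and stroma markers summed to at most 0.394 FPKM, and blood cell markers to at most 2.09 FPKM.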
